A study of Mus musculus with 6 samples.

Results

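The sarcomere and contractile genes are 58 listed mouse genes that encode the filaments of striated muscle and the proteins that anchor and supply them, out of 21000 protein-coding genes with a curated RefSeq transcription start site (TSS). The rule lists them by name and uses no measured value, though the list was drawn up with earlier results of these data known. They are described here by where Lsd1, the lysine demethylase that acts on histone H3 as part of repressor and activator complexes, was found on chromatin by ChIP-seq. All 58 were found in the annotation, and the other 20942 protein-coding genes served as the comparison.

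The cells were C2C12, an established mouse myoblast line that forms myotubes in low serum and can be driven towards fat cells by an adipogenic cocktail. Wild-type cells were kept for 1 day in myogenic medium with 2% horse serum or for 1 day in adipogenic medium, which contained 10% FCS, isobutylmethylxanthine, indomethacin, dexamethasone, insulin, T3 and rosiglitazone. Overexpressing cells, LSD1(OE), were kept for 1 day in the same adipogenic medium. They were a separately selected stable line that carries a lentiviral, doxycycline-inducible Flag-LSD1, and since neither doxycycline nor the selection is listed for wild-type cells, the level of LSD1, the line and the agent cannot be told apart. Each condition had 1 ChIP library, precipitated with an antibody against the C-terminus of Lsd1, and 1 input library. There was therefore no replicate, no value carries a biological error, no test between conditions was run, and every difference below is a difference between single libraries. Peaks give neither the expression of the members nor the identity of the cells nor the level of LSD1, and these were not checked.

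A sarcomere is built from myosin thick filaments and actin thin filaments. Troponin and tropomyosin on the thin filament make contraction depend on calcium, titin and nebulin span the filaments as long elastic or stiff strands, and the Z-disc and the M-band hold the filaments in register. Many of these proteins exist in fast, slow, embryonic and cardiac forms, each from its own gene, and myoblasts switch on embryonic and fetal forms when they leave the cell cycle. Myogenic bHLH factors such as MyoD bind the E-box, CANNTG, and act with MEF2, SRF and TEAD factors at such genes.

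The promoter sequences below show what lies at the TSS of members that the results turn on. By myogenic score Tpm2 and Obsl1 had the strongest promoter peaks of those found in all 3 libraries, and Tnnc2, Mb and Tnnt2 the strongest of those found in the myogenic library alone, among the 48 members that matched a promoter in the RefSeq table for GRCm38.p6. Myh3, the embryonic myosin heavy chain, was added as a myogenic-only member of the myosin cluster. Each promoter runs 5′ to 3′ from 250 bases before to 30 bases from the TSS on, and the last entry is a window of 200 bases around the summit of the Myom1 peak in intron 5, the highest intronic peak of a member without a promoter peak. Capitals mark matches to CANNTG, the E-box, on either strand. The Tpm2 promoter lies at chr4:43523525-43523804 on the minus strand, Obsl1 at chr1:75506423-75506702 on the minus strand and Tnnc2 at chr2:164779705-164779984 on the minus strand. The Mb promoter lies at chr15:77022758-77023037 on the minus strand, Tnnt2 at chr1:135836084-135836363 on the plus strand, Myh3 at chr11:67078050-67078329 on the plus strand and the Myom1 window at chr17:71038732-71038931 on the plus strand.
Tpm2: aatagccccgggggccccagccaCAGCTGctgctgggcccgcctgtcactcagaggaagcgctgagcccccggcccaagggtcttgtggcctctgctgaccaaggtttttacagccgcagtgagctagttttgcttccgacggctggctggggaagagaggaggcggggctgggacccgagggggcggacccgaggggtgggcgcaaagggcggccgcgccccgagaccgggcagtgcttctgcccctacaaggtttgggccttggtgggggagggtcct
Obsl1: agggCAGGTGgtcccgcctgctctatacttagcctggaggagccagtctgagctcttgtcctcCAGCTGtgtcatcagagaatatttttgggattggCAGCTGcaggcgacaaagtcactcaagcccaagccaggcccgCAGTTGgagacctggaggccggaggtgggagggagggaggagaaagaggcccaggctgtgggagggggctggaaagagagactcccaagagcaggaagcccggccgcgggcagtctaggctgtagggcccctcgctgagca
Tnnc2: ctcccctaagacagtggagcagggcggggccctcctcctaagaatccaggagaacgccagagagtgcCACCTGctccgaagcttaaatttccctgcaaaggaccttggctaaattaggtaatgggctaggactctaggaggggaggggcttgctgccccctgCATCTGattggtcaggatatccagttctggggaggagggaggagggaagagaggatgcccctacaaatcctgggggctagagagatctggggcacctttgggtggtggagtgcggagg
Mb: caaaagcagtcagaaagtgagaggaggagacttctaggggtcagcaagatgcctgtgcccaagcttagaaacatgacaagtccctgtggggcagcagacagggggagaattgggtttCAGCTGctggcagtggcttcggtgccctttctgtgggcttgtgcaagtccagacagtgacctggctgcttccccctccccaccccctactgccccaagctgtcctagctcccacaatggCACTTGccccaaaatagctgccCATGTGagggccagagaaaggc
Tnnt2: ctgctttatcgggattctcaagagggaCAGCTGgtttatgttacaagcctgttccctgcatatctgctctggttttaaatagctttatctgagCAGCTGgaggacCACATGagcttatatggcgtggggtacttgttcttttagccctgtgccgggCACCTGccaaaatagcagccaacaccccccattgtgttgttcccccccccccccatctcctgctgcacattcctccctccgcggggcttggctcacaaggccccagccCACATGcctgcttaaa
Myh3: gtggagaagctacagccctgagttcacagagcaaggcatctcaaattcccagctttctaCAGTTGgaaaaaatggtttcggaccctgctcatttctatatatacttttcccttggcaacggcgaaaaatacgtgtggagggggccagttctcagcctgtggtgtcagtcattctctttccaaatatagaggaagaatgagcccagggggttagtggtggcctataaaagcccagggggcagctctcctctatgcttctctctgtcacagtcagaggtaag
Myom1: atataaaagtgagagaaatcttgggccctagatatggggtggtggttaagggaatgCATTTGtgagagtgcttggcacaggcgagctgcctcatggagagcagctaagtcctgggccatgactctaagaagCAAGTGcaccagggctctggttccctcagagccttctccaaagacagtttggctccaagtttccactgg

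The Tpm2 promoter holds 17 CpG dinucleotides and 1 E-box, whereas the Mb promoter holds 1 CpG and 3 E-boxes. Tnnt2 has 5 E-boxes, Obsl1 4, Tnnc2 2 and Myh3 1, and Myh3 alone among the 6 promoters holds TATAAA. Over the RefSeq promoters of 300 bases, searched on both strands, CANNTG was found in 43 of 48 members (89.6%) and in 68.5% of 16805 other promoters. A member with a promoter peak was read at the TSS nearest its strongest such peak, where listed. Every other gene was read at its most upstream listed TSS, so the choice of TSS differs between the sides. CAGCTG, a form of CANNTG that overlaps it at each match, was found in 39.6% of the members and 15.2% of the others. The CArG box, bound by SRF, was found in 8 members (16.7%) against 1.51% of the others, and the MEF2 motif likewise in 8 members (16.7%) against 2.73%. CATTCC, the element bound by TEAD factors, was found in 35.4% against 13.0%, and TATAAA in 22.9% against 13.2%. Of these 8 members with a CArG box, 6 had no Lsd1 promoter peak in any library, and so had 6 of the 8 with a MEF2 motif, out of 25 members without such a peak. A match gives the letters only and shows no binding.

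Promoter occupancy was counted as a peak with its centre within 2000 bp of any curated TSS of the gene. In the myogenic library 29 of the 58 members (50%) had such a peak, beside 51.6% of the other protein-coding genes. In wild-type cells in adipogenic medium 12 members (20.7%) had one, beside 30.0% of the others. In LSD1(OE) cells in the same medium the number was again 12 (20.7%), beside 41.2% of the others. The members were thus close to the background in myogenic medium and below it in adipogenic medium, most of all in LSD1(OE) cells. In the myogenic library the order depended on the setting: the members stood up to 7.7 percentage points lower, at 37.9 against 45.6% with ChIP tags not scaled up, and up to 5.1 higher, at 60.3 against 55.2% with a window of 5000 bp. With the nearest TSS only they were also higher, at 50 against 46.1%. The 12 in the adipogenic library and the 12 in the LSD1(OE) library shared 8 genes, 66.7% of each. Of the other genes with a peak in wild-type adipogenic cells 89.3% were also occupied in LSD1(OE) cells, and 65.0% the other way round. Every member with a promoter peak in an adipogenic library also had one in the myogenic library, as did 96.9% of the 6283 other genes with a peak in wild-type adipogenic cells and 92.6% of the 8634 with a peak in LSD1(OE) cells.

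**Figure D1:**
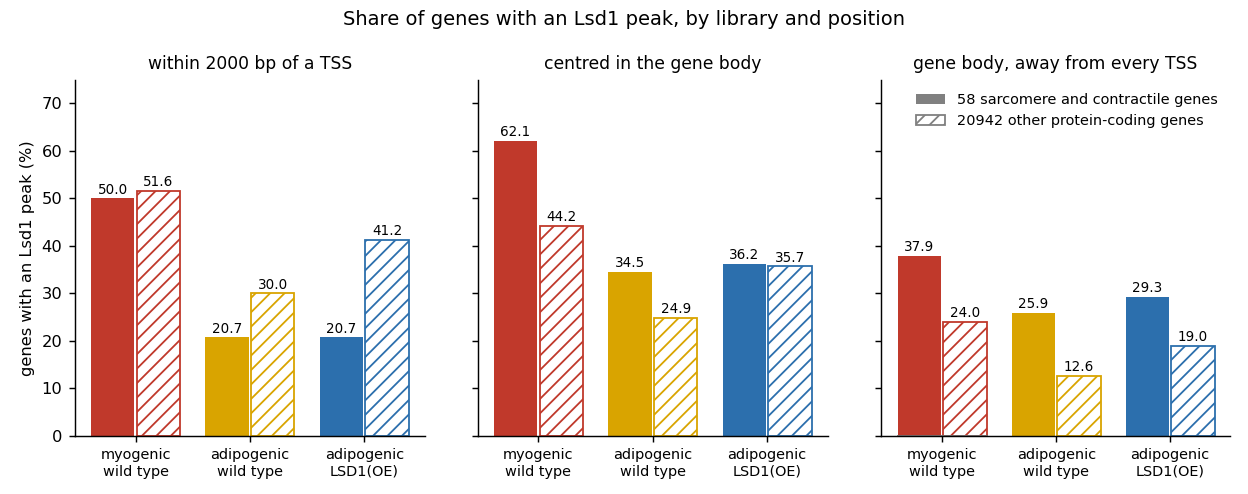
Share of genes with an Lsd1 peak, in percent, for the 58 members (filled bars) and the 20942 other protein-coding genes (hatched bars), in each of the 3 libraries, for peaks within 2000 bp of a TSS, peaks centred in the gene body and gene-body peaks more than 2000 bp from every TSS of the gene. At promoters the members stand at 50, 20.7 and 20.7% against 51.6, 30.0 and 41.2%, and away from the TSS they stand above the other genes in all 3 libraries.

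By pattern over the 3 libraries, 8 members (13.8%) had a promoter peak in all of them, beside 26.3% of the other genes. These were the tropomyosins Tpm1 and Tpm2, the smooth muscle actin Acta2, the Z-disc genes Actn3, Ldb3 and Pdlim3, the myosin-binding protein Mybph and the obscurin relative Obsl1. Lmod3, Myl4, Tnnt1 and Xirp1 had a peak in both wild-type libraries but not in LSD1(OE) cells, which is 6.90% of the members and 2.75% of the others. Des, Mylpf, Tnnc1 and Tpm3 had a peak in the myogenic and the LSD1(OE) library but not in wild-type adipogenic cells, which is again 6.90% of the members and 11.9% of the others. Another 13 members (22.4%) had a promoter peak in the myogenic library alone, beside 10.6% of the others. They were Acta1, Mb, Myh1, Myh3, Myl1, Myom2, Nebl, Tmod1, Tnnc2, Tnni2, Tnnt2, Tnnt3 and Ttn. The remaining 29 members (50%) had no promoter peak in any library, beside 44.9% of the others.

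Of the 17 members with a myogenic promoter peak and none in wild-type adipogenic cells, 4 (23.5%) were occupied in LSD1(OE) cells. Among the other genes with this pattern, 2483 of 4707 (52.8%) had a peak in LSD1(OE) cells. Set against the number in the myogenic library, the number of members in LSD1(OE) cells came to 41.4%, and that of the other genes to 80.0%. For wild-type adipogenic cells the same figures were 41.4% and 58.2%. Of the members, no myosin heavy chain, troponin T or troponin I gene, and neither Acta1, Ttn nor Mb, was occupied at the promoter in LSD1(OE) cells.

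**Figure D2:**
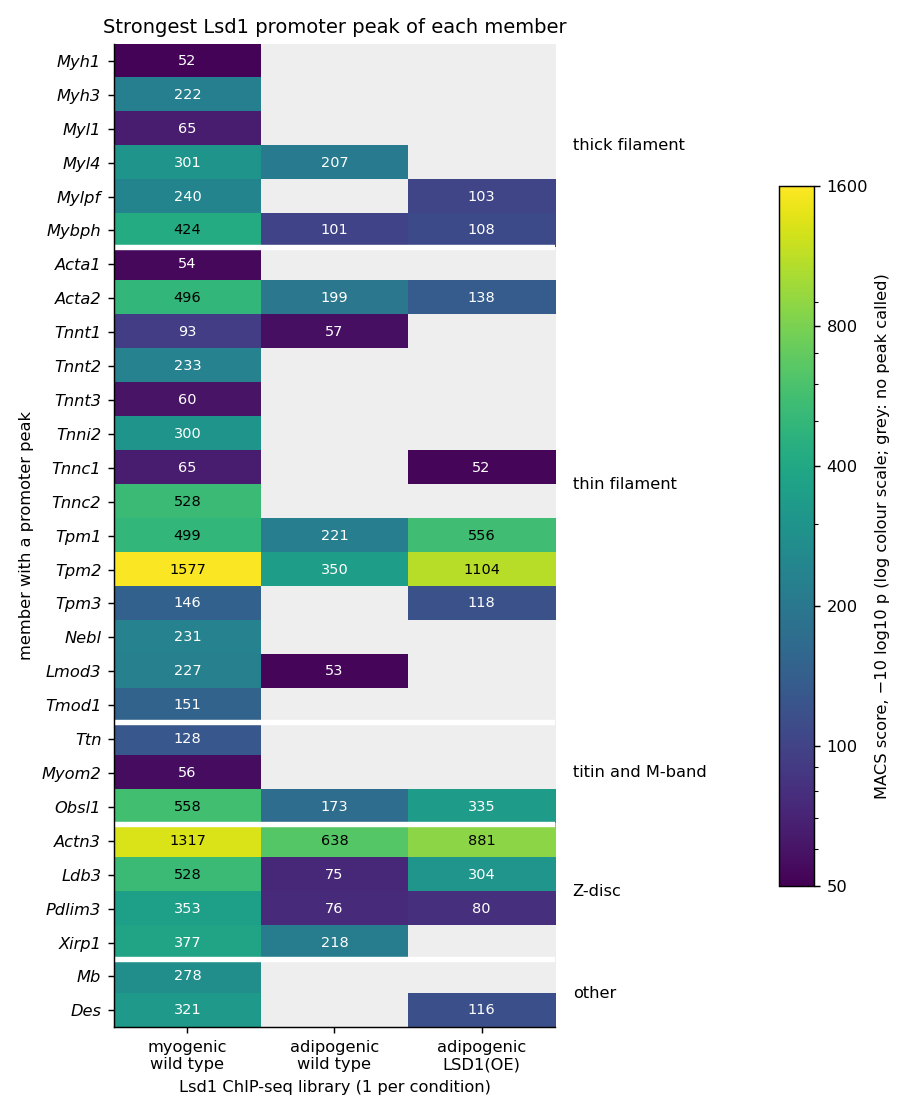
Score of the strongest Lsd1 promoter peak, −10 log10 of its p-value on a log colour scale, for the 29 members with such a peak (rows, by place in the sarcomere) in the 3 libraries (columns, 1 library per condition), with grey where no peak was called. All 29 have a value in the myogenic column, from 51.9 at Myh1 to 1577 at Tpm2, and 12 in each adipogenic column.

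The peak list gives each peak its tags, which are ChIP reads left after duplicates were limited, its score, which is 10 times −log10 of the p-value and starts at 50, its fold enrichment over local background and its false discovery rate (FDR) in percent. For promoter peaks the FDR is printed where it was above 0.01%. The score and the fold enrichment depend on the depth of both ChIP and input and are not on the same scale between libraries, so they rank peaks within a library only. A peak missing from a list shows only that the site stayed below the calling threshold. The myogenic, adipogenic and LSD1(OE) libraries held 46155625, 63915769 and 55193310 filtered ChIP tags and 43426, 18893 and 33533 peaks, with 27, 35 and 30 tags in the weakest peak. The adipogenic library thus had the most tags and the fewest peaks. MACS scaled the ChIP tags up to the larger input, by 1.9, 1.28 and 1.82 times.

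Among the 19 thick filament genes, 6 had a promoter peak in the myogenic library, 2 in wild-type adipogenic cells and 2 in LSD1(OE) cells. Of the other protein-coding genes, 51.6, 30.0 and 41.2% had one in these libraries. The same shares stand beside each group by role below, and the groups are small. Myh3, which encodes the embryonic heavy chain, had its strongest peak 1384 bp upstream of the TSS, at chr11:67076402-67077430, with 69 tags over 1029 bp, a score of 222 and an enrichment of 3.31-fold. A weaker peak of score 54.6 and an FDR of 0.35% lay across the TSS of Myh3, where the sequence above was taken. Myh1, the heavy chain of fast IIx fibres, had a peak at chr11:67199562-67200199 with 30 tags over 638 bp, a score of 51.9, an enrichment of 1.60-fold and an FDR of 0.36%, the lowest score among the strongest myogenic promoter peaks of the members. Neither heavy chain had a peak in the adipogenic libraries. Of the light chains, Myl1, which makes the essential chains of fast fibres, had a promoter peak in the myogenic library alone. It held 34 tags over 691 bp at chr1:66935038-66935728, with a score of 65.4, an enrichment of 1.82-fold and an FDR of 0.25%. An LSD1(OE) peak lay inside Myl1, in intron 2 at chr1:66931570-66932126, with 32 tags and a score of 57.3.

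Myl4, the atrial and embryonic essential light chain, and Mylpf, the fast regulatory light chain, were the light chains with higher scores. Myl4 had 87 tags over 1230 bp at chr11:104549714-104550943 in the myogenic library, with a score of 301 and an enrichment of 2.88-fold. In wild-type adipogenic cells its peak at chr11:104550069-104551614 held 124 tags over 1546 bp, with a score of 207, an enrichment of 3.67-fold and an FDR of 0.05%. The centre of the myogenic peak also lies within the body of Cdc27, which is the gene with the nearest TSS. Mylpf had 91 tags over 1514 bp at chr7:127208137-127209650 in the myogenic library, with a score of 240 and an enrichment of 2.03-fold. Its LSD1(OE) peak at chr7:127208358-127209380 held 60 tags over 1023 bp, with a score of 103, an enrichment of 1.76-fold and an FDR of 0.15%. At the promoter Myl4 thus had peaks in the wild-type libraries and Mylpf in the myogenic and LSD1(OE) libraries. Inside the gene Myl4 also had an LSD1(OE) peak, in intron 2 at chr11:104568075-104568730, with 41 tags and a score of 76.8.

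Mybph, a relative of myosin-binding protein C, was the thick filament gene with a promoter peak in all 3 libraries. Its strongest myogenic peak, at chr1:134194224-134195843 in intron 3, held 118 tags over 1620 bp, with a score of 424 and an enrichment of 3.42-fold. The wild-type adipogenic peak at chr1:134194098-134195293 held 82 tags over 1196 bp, with a score of 101, an enrichment of 2.87-fold and an FDR of 0.17%. The LSD1(OE) peak at chr1:134193896-134194758 held 54 tags over 863 bp, with a score of 108, an enrichment of 2.23-fold and an FDR of 0.14%. The peaks given so far were centred downstream of the TSS, within the gene. A further myogenic peak of Mybph lay across the TSS, at chr1:134192669-134194124, centred 52 bp upstream, with 78 tags and a score of 192.

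Among the 20 thin filament genes, 14 had a promoter peak in the myogenic library, 5 in wild-type adipogenic cells and 5 in LSD1(OE) cells. The shares of the other protein-coding genes were 51.6, 30.0 and 41.2%. Tropomyosin, the strand that covers the myosin sites on actin, came with the highest promoter score of the list, at Tpm2. The Tpm2 peak in the myogenic library, at chr4:43520999-43524574, spanned 3576 bp with 327 tags, a score of 1577 and an enrichment of 4.81-fold. In wild-type adipogenic cells it covered 1367 bp at chr4:43522876-43524242 with 140 tags, a score of 349.65 and an enrichment of 5.39-fold. The LSD1(OE) peak at chr4:43521391-43524263 covered 2873 bp with 278 tags, a score of 1104 and an enrichment of 4.27-fold. These 3 peaks overlap and all reach the TSS that the Tpm2 sequence above runs up to.

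Tpm1 has 2 curated TSSs, and both were occupied in all 3 libraries. At the downstream TSS the myogenic peak had a score of 481, the adipogenic peak at chr9:67043028-67044285 had 111 tags over 1258 bp, a score of 221, an enrichment of 4.24-fold and an FDR of 0.02%, and the LSD1(OE) peak at chr9:67042881-67044559 had 152 tags over 1679 bp, a score of 556 and an enrichment of 3.53-fold. The strongest myogenic peak of Tpm1 lay at the upstream TSS, at chr9:67048209-67049963, with 132 tags over 1755 bp, a score of 499 and an enrichment of 3.21-fold, and the peaks there scored 97.3 in wild-type adipogenic cells, with an FDR of 0.19%, and 394 in LSD1(OE) cells. Tpm3, the slow fibre and cytoskeletal tropomyosin, had a myogenic peak at chr3:90079148-90080614 with 102 tags over 1467 bp, a score of 146, an enrichment of 2.25-fold and an FDR of 0.03%. Its LSD1(OE) peak at chr3:90079768-90080729 had 60 tags over 962 bp, a score of 118, an enrichment of 2.23-fold and an FDR of 0.12%. In wild-type adipogenic cells the nearest peak lay 2220 bp from a Tpm3 TSS, just outside the window.

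The troponins, the calcium switch of the thin filament, were occupied mainly in the myogenic library. Tnnc2, the fast troponin C, had the strongest of these peaks, at chr2:164778711-164780699 across the TSS, with 161 tags over 1989 bp, a score of 528 and an enrichment of 3.00-fold. Tnni2, the fast troponin I, had 105 tags over 1671 bp at chr7:142441182-142442852, with a score of 300.07 and an enrichment of 2.78-fold, and Tnnt2, the cardiac and embryonic troponin T, had 90 tags over 1511 bp at chr1:135835103-135836613, with a score of 233 and an enrichment of 2.88-fold. Tnnt3, the fast troponin T, was weak, with 32 tags over 658 bp at chr7:142500044-142500701, a score of 59.9, an enrichment of 2.56-fold and an FDR of 0.3%. None of these 4 genes had a promoter peak in either adipogenic library.

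Tnnt1 and Tnnc1, which encode slow fibre and cardiac forms, were the troponins with a promoter peak in an adipogenic library. Tnnt1 had a myogenic peak at chr7:4513957-4514856 with 46 tags over 900 bp, a score of 93.3, an enrichment of 2.14-fold and an FDR of 0.15%. Its wild-type adipogenic peak at chr7:4514172-4514907 had 48 tags over 736 bp, a score of 57.3, an enrichment of 2.52-fold and an FDR of 0.54%. Both lay within the gene, 1569 and 1436 bp from the TSS. Tnnc1 had a myogenic peak downstream of the TSS, at chr14:31209324-31209857, with 28 tags over 534 bp, a score of 64.8, an enrichment of 2.24-fold and an FDR of 0.25%. The LSD1(OE) peak lay upstream, at chr14:31206782-31207386, with 33 tags over 605 bp, a score of 52.5, an enrichment of 1.67-fold and an FDR of 0.41%, nearest to the TSS of Nisch. A myogenic peak of 160 tags with a score of 531 overlapped this upstream LSD1(OE) peak, in a merged region at chr14:31204765-31207386, but its centre lay outside the promoter window. The upstream site of Tnnc1 was thus found in both libraries, and the downstream site in the myogenic library alone. Tnni1 and Tnni3, the slow and cardiac troponin I, had no peak at the promoter or in the gene.

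Of the sarcomeric actins, Acta1, the skeletal form, had weak myogenic peaks only, the stronger with 29 tags over 598 bp at chr8:123896022-123896619, a score of 53.8, an enrichment of 1.82-fold and an FDR of 0.36%, and Actc1, the cardiac form, had none. Acta2, the smooth muscle form that myoblasts also express, had a myogenic peak at chr19:34254030-34256067 with 158 tags over 2038 bp, a score of 496 and an enrichment of 3.33-fold. In wild-type adipogenic cells the strongest Acta2 peak, at chr19:34253236-34255039, had 145 tags over 1804 bp, a score of 199, an enrichment of 3.54-fold and an FDR of 0.04%. In LSD1(OE) cells the Acta2 peak at chr19:34255001-34256053 had 67 tags over 1053 bp, a score of 138, an enrichment of 2.04-fold and an FDR of 0.07%. Acta2 was thus occupied in all 3 libraries, unlike the striated forms.

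Nebl, the nebulin relative, had 88 tags over 1465 bp at chr2:17730043-17731507, with a score of 231 and an enrichment of 2.14-fold, and Tmod1, a pointed-end cap, had 62 tags over 1091 bp at chr4:46039118-46040208, with a score of 151, an enrichment of 2.24-fold and an FDR of 0.03%. Neither had a promoter peak in an adipogenic library. Lmod3, a leiomodin that nucleates actin, had a myogenic peak at chr6:97252350-97253364 with 69 tags over 1015 bp, a score of 227 and an enrichment of 3.85-fold. Its wild-type adipogenic peak at chr6:97252476-97253318 had 52 tags over 843 bp, a score of 53.1, an enrichment of 3.09-fold and an FDR of 0.66%, close to the threshold.

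Of the 5 titin and M-band genes, 3 had a promoter peak in the myogenic library and 1 in each adipogenic library. Ttn, which encodes titin, had 72 tags over 1460 bp at chr2:76981718-76983177, across exon 1, with a score of 128, an enrichment of 2.31-fold and an FDR of 0.07%. Myom2, the fast fibre M-protein, had 30 tags over 617 bp at chr8:15057198-15057814, with a score of 56.1, an enrichment of 2.03-fold and an FDR of 0.35%. Both were myogenic only at the promoter. Inside the gene Myom2 had an intron 1 site in all 3 libraries, scoring 337 in the myogenic, 77.3 in the wild-type adipogenic and 117 in the LSD1(OE) library. The wild-type adipogenic and LSD1(OE) peaks lay 2498 and 2548 bp from its TSS, just outside the window. An intron 6 site of Myom2 was likewise found in all 3, with scores of 226, 143 and 209. Obsl1, which links titin to the M-band, had 156 tags over 2138 bp at chr1:75504722-75506859 in the myogenic library, with a score of 558 and an enrichment of 2.88-fold. Its wild-type adipogenic peak at chr1:75504732-75506178 had 112 tags over 1447 bp, a score of 173, an enrichment of 3.21-fold and an FDR of 0.07%, and the LSD1(OE) peak at chr1:75505077-75507113 had 142 tags over 2037 bp, a score of 335 and an enrichment of 2.41-fold.

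Of the 11 Z-disc genes, 4 had a promoter peak in the myogenic library, the same 4 in wild-type adipogenic cells and 3 in LSD1(OE) cells. Actn3, the alpha-actinin of fast fibres, had the highest-scoring promoter peak of the list in wild-type adipogenic cells, at chr19:4876570-4879082, with 260 tags over 2513 bp, a score of 638 and an enrichment of 4.09-fold. Its myogenic peak at chr19:4875710-4879199 had 298 tags over 3490 bp, a score of 1317 and an enrichment of 5.13-fold, and the LSD1(OE) peak at chr19:4876360-4879149 had 249 tags over 2790 bp, a score of 881 and an enrichment of 3.34-fold. Actn2, the alpha-actinin of all striated fibres, had no peak in any library.

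Ldb3, which encodes the alpha-actinin partner ZASP, had 122 tags over 1474 bp at chr14:34587901-34589374 in the myogenic library, with a score of 528 and an enrichment of 3.53-fold. The wild-type adipogenic peak at chr14:34588148-34589111 had 64 tags over 964 bp, a score of 74.9, an enrichment of 2.75-fold and an FDR of 0.35%, and the LSD1(OE) peak at chr14:34588071-34589596 had 119 tags over 1526 bp, a score of 304 and an enrichment of 2.67-fold. Pdlim3, a PDZ and LIM protein that binds alpha-actinin, had 125 tags over 2086 bp at chr8:45884352-45886437 in the myogenic library, with a score of 353 and an enrichment of 2.24-fold. The wild-type adipogenic peak of Pdlim3 at chr8:45885279-45886536 had 83 tags over 1258 bp, a score of 75.8, an enrichment of 2.98-fold and an FDR of 0.35%. In LSD1(OE) cells the Pdlim3 peak at chr8:45884874-45885737 had 49 tags over 864 bp, a score of 79.8, an enrichment of 1.86-fold and an FDR of 0.25%. Xirp1, an actin-binding Xin repeat protein, had 106 tags over 1467 bp at chr9:120023570-120025036 in the myogenic library, with a score of 377 and an enrichment of 3.21-fold. The wild-type adipogenic peak at chr9:120023988-120025322 had 115 tags over 1335 bp, a score of 218, an enrichment of 3.55-fold and an FDR of 0.02%, and none was called in LSD1(OE) cells.

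Of the 3 remaining genes, Mb encodes the oxygen store myoglobin, Des the intermediate filament desmin and Ckm the muscle creatine kinase. Mb had 134 tags over 1946 bp at chr15:77021876-77023821 in the myogenic library alone, with a score of 278 and an enrichment of 2.08-fold. Mb lies on chromosome 15, where 67.5, 57.8 and 62.5% of 760 protein-coding genes had a promoter peak in the myogenic, adipogenic and LSD1(OE) libraries, against 52.6, 30.2 and 41.9% on the other autosomes. The part of the chromosome in the peaks at Mb was not tested. Des had a myogenic peak at chr1:75359881-75361019 with 85 tags over 1139 bp, a score of 321 and an enrichment of 3.09-fold. Its LSD1(OE) peak at chr1:75359826-75360807 had 62 tags over 982 bp, a score of 116, an enrichment of 2.23-fold and an FDR of 0.12%, at the same site.

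**Figure D3:**
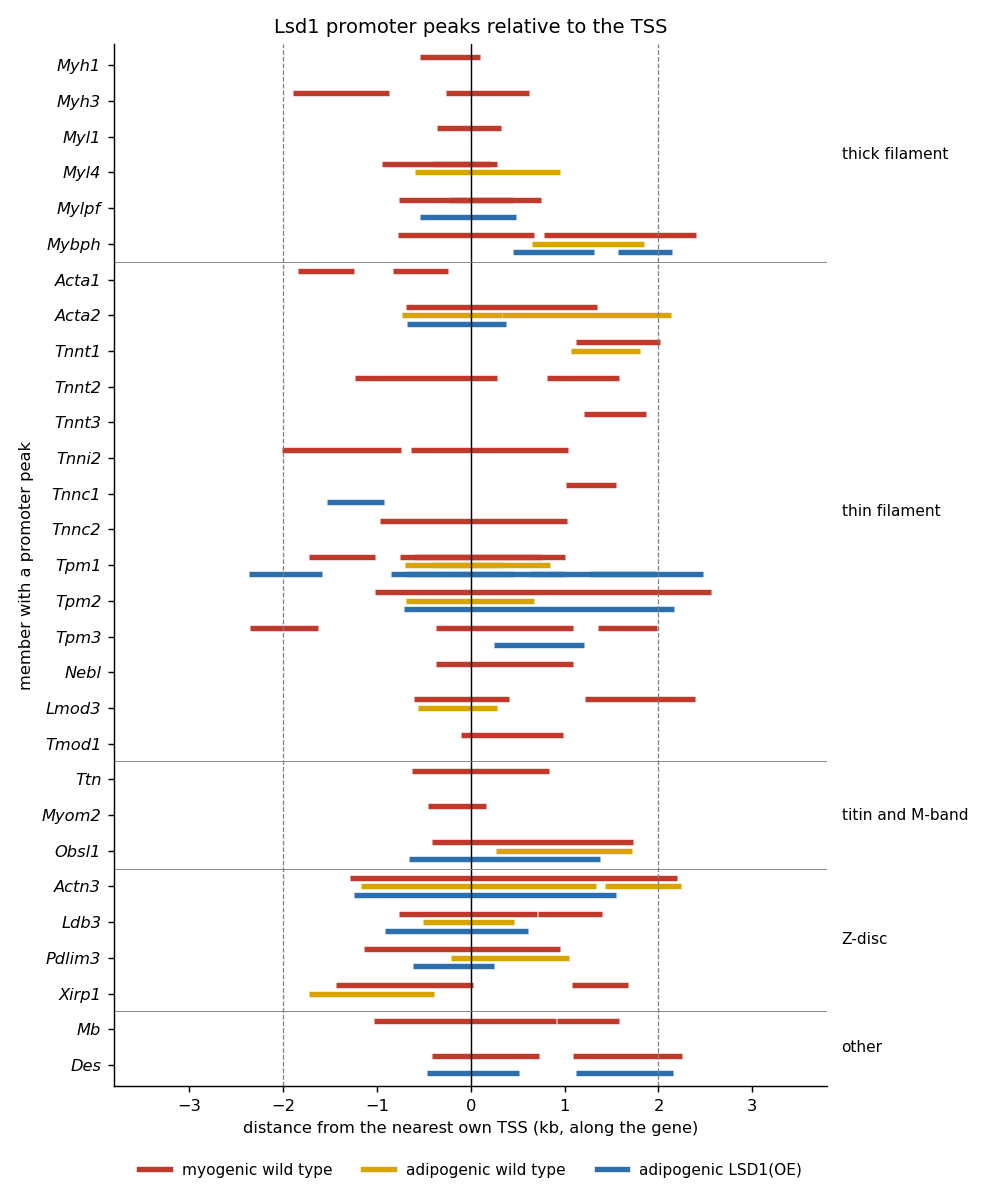
Extent of every Lsd1 promoter peak of the 29 members, in kb along the gene from the nearest TSS of that gene (0), coloured by library, with dashed lines at 2 kb either side. Where a gene has several TSSs the bars of each are drawn over each other. Bars of different libraries mostly cover the same stretch, and peaks centred outside the window, such as the upstream myogenic peak at Tnnc1 with a score of 531, are not drawn.

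Over the list, the strongest promoter peak of a member had a median score of 240.03 in the myogenic library, beside 323 for the other genes with a promoter peak. The medians were 186 and 141 in wild-type adipogenic cells and in LSD1(OE) cells 128 and 205. The peaks of the members thus scored lower than those of other genes in the myogenic and LSD1(OE) libraries and higher in wild-type adipogenic cells. A score under 100 was found for 7 of the 29 members in the myogenic library (24.1%, beside 12.7% of the others), for 4 of the 12 in wild-type adipogenic cells (33.3%, beside 32.6%) and for 2 of the 12 in LSD1(OE) cells (16.7%, beside 22%). Just inside the window lay Tnnc1, Tnnt3 and Tnnt1 in the myogenic library, at 1278, 1536 and 1569 bp, and just outside it lay Lmod2, at 2021 bp.

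The gene bodies gave another picture. A peak centred between the ends of the curated transcripts was found in 36 members (62.1%) in the myogenic library, beside 44.2% of the other genes, in 20 (34.5%) beside 24.9% in wild-type adipogenic cells and in 21 (36.2%) beside 35.7% in LSD1(OE) cells. When only peaks more than 2000 bp from every TSS of the gene were counted, 22 members (37.9%) had a peak in the myogenic library, beside 24.0% of the others. The number was 15 (25.9%) in wild-type adipogenic cells, beside 12.6%, and in LSD1(OE) cells 17 (29.3%), beside 19.0%. Away from the TSS the members thus stood above the background in all 3 libraries. Their genes were longer at the median, with 20.7 kb against 16.7 kb, so the peaks were also counted per 100 kb. That rate divides by the total gene length and not the median, with 2.26 Mb for the members and 987.79 Mb for the other genes. On that scale the members had 1.99, 1.02 and 1.41 such peaks in the myogenic, adipogenic and LSD1(OE) libraries, and the other genes 1.56, 0.605 and 1.18. The peaks were unevenly spread over the members. In the myogenic library Mb held 8 of the 45, Tmod1 6 and Ldb3 5. In LSD1(OE) cells Ldb3 held 7 of the 32 and Mb 5, and in wild-type adipogenic cells Myom1 held 4 of the 23. The rate without these genes was not computed, so it does not describe a typical member. Of the peaks away from the TSS, 44 of 45, 21 of 23 and 29 of 32 lay in introns. For 13, 5 and 10 of these peaks away from the TSS, the nearest TSS was that of another gene. This was not counted for the other genes.

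Of the members without a promoter peak, 10 had gene-body peaks only. Myom1, the M-band protein myomesin, had the strongest of them, a peak of 235 tags at chr17:71038037-71041169 in intron 5 with a score of 870.2 in the myogenic library. The same site scored 274 in wild-type adipogenic cells and 514 in LSD1(OE) cells, and a peak in intron 10 was likewise found in all 3 libraries, with scores of 491, 218 and 224. Ckm had a peak across its last exon, exon 8, at chr7:19420859-19421977 in the myogenic library with 84 tags and a score of 322, and at nearly the same position in wild-type adipogenic cells with 80 tags and a score of 127 and in LSD1(OE) cells with 84 tags and a score of 297. The nearest TSS to this Ckm site was that of A930016O22Rik in all 3 libraries, and the Ckm TSS lay 10324, 10289 and 10342 bp away. Neb, which encodes nebulin, had a peak in intron 10 with 60 tags and a score of 201 in the myogenic library, 79 tags scoring 131 in wild-type adipogenic cells and 79 tags scoring 232 in LSD1(OE) cells. The strongest sites of Myom1, Ckm and Neb were thus found in all 3 libraries.

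The other genes with gene-body peaks only had them in a single library. Myh7b, a slow heavy chain of low abundance, had a myogenic peak of score 196 in intron 21, Myom3, the myomesin of slow fibres, of score 195 in intron 7, and Lmod2, a leiomodin, of score 135 in intron 1. The TSS nearest to the Myh7b peak was that of Mir499. Myoz2 and Myoz1, Z-disc proteins that bind calcineurin, had scores of 87.8 and 69.1, and Mybpc1, the slow myosin-binding protein C, had 51.2, all in the myogenic library. Mybpc3, the cardiac myosin-binding protein C, had an intron 12 peak scoring 93.9 in LSD1(OE) cells alone and was the only member with peaks in an adipogenic library but not in the myogenic one.

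Members with a promoter peak also carried peaks inside the gene. In Mb, whose longest transcript starts far upstream, an intronic peak at chr15:77034203-77039387 held 474 tags with a score of 1565 in the myogenic library, 367 tags scoring 739.6 in wild-type adipogenic cells and 308 tags scoring 759 in LSD1(OE) cells. Its nearest TSS was that of Apol6. Mb was thus myogenic only at its promoters but had an intronic site in all 3 libraries. Ldb3 had an intron 7 peak of score 638 in the myogenic library, with 191 tags, beside 93.5 in wild-type adipogenic cells and 132 in LSD1(OE) cells, and an intron 8 peak with scores of 332, 187 and 262. Tnnt2 had an intron 5 peak of score 515 in the myogenic library and 159.6 in wild-type adipogenic cells, and Tmod1 an intron 4 peak of score 487 in the myogenic library alone. Another Tmod1 site, in intron 7 and nearest to the TSS of Tstd2, was found in all 3 libraries. Its scores were 328 in the myogenic library, 98.6 in wild-type adipogenic cells and 179.7 in LSD1(OE) cells.

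Members that lie side by side were compared over the whole interval, including 2000 bp either side. The fast and developmental heavy chains Myh3, Myh2, Myh1, Myh4, Myh8 and Myh13 share 297.3 kb of chromosome 11. In the myogenic library 7 peaks lay in it and in each adipogenic library 0. The whole lists held 43426 myogenic, 18893 wild-type adipogenic and 33533 LSD1(OE) peaks. The strongest of the 7, with 83 tags and a score of 297, lay at chr11:67164543-67165646, 5933 bp upstream of Myh2, which encodes the heavy chain of fast IIa fibres. Next came the upstream Myh3 peak of score 222, and the others scored at most 72.1. The nearest adipogenic peaks lay 60401 bp from the TSS of Myh3 in wild-type cells and 25735 bp in LSD1(OE) cells. The cardiac pair Myh6 and Myh7 held no peak in any library over 56.7 kb. The interval from Tnni1 to Tnnt2 had 9 peaks in the myogenic library, with scores up to 515, and 2 in each adipogenic library, with scores up to 159.6 and 85.2. The Tnnt1 and Tnni3 interval had 1 peak in the myogenic library, 2 in wild-type adipogenic cells and 0 in LSD1(OE) cells.

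The interval from Tnni2 to Tnnt3 held 7, 3 and 4 peaks, and the strongest in each library, with scores of 1289.7, 421 and 1851, lay inside Lsp1, a gene of leukocytes that sits between the pair. At the troponin genes themselves the peaks were in the myogenic library alone, and the sites held in all 3 libraries belonged to Lsp1.

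Overlapping peaks at the members, at promoters and in gene bodies, merged into 101 regions. Of these, 60 (59.4%) were found in 1 library, 16 (15.8%) in 2 and 25 (24.8%) in 3, beside 60.4, 19.0 and 20.6% of all 56729 regions. Here and below, all regions are those merged from the whole peak lists, also outside promoters and gene bodies. They are thus a wider class than the promoters and gene bodies of the other protein-coding genes, for which regions were not counted. By library, 47 (46.5%) were myogenic only, beside 35.9% of all regions, and 11 (10.9%) were LSD1(OE) only, beside 20.8%. Where 2 libraries shared a region, their tags could be compared per kb and per 1000000 filtered ChIP tags, with exact intervals that cover counting error only. At the Tpm2 promoter this density was 1.98 (95% interval 1.77 to 2.21) in the myogenic library, 1.60 (1.35 to 1.89) in wild-type adipogenic cells and 1.75 (1.55 to 1.97) in LSD1(OE) cells. At the Ldb3 promoter it was 1.79 (1.49 to 2.14), 1.04 (0.80 to 1.33) and 1.41 (1.17 to 1.69). The wild-type adipogenic over myogenic ratio was 0.81 (0.66 to 0.99) at Tpm2.

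Over 31 regions the density in wild-type adipogenic cells over that in the myogenic library had a median of 0.81, with 29 ratios below 1, and over all 14149 such regions the median was 0.80. The lowest ratio was that of the Ldb3 promoter, 0.58 (0.42 to 0.79), and for 11 regions the interval lay below 1. The LSD1(OE) density over the myogenic density had a median of 0.82 over 35 regions, beside 0.88 over all 18581, with 31 ratios below 1 and 7 intervals below 1. The LSD1(OE) density over the wild-type adipogenic density had a median of 1.06 over 25 regions, beside 1.09 over all 13053, and only the region in intron 5 of Myom1 had an interval above 1, with a ratio of 1.27 (1.02 to 1.59). The medians of the members lay near those of all regions in each comparison. Each density was taken over the length called in its own library, which differed, as at Tpm2 with 3576, 1367 and 2873 bp, and only regions called in both libraries enter, so the ratios describe called peaks and not the change at a fixed stretch.

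**Figure D4:**
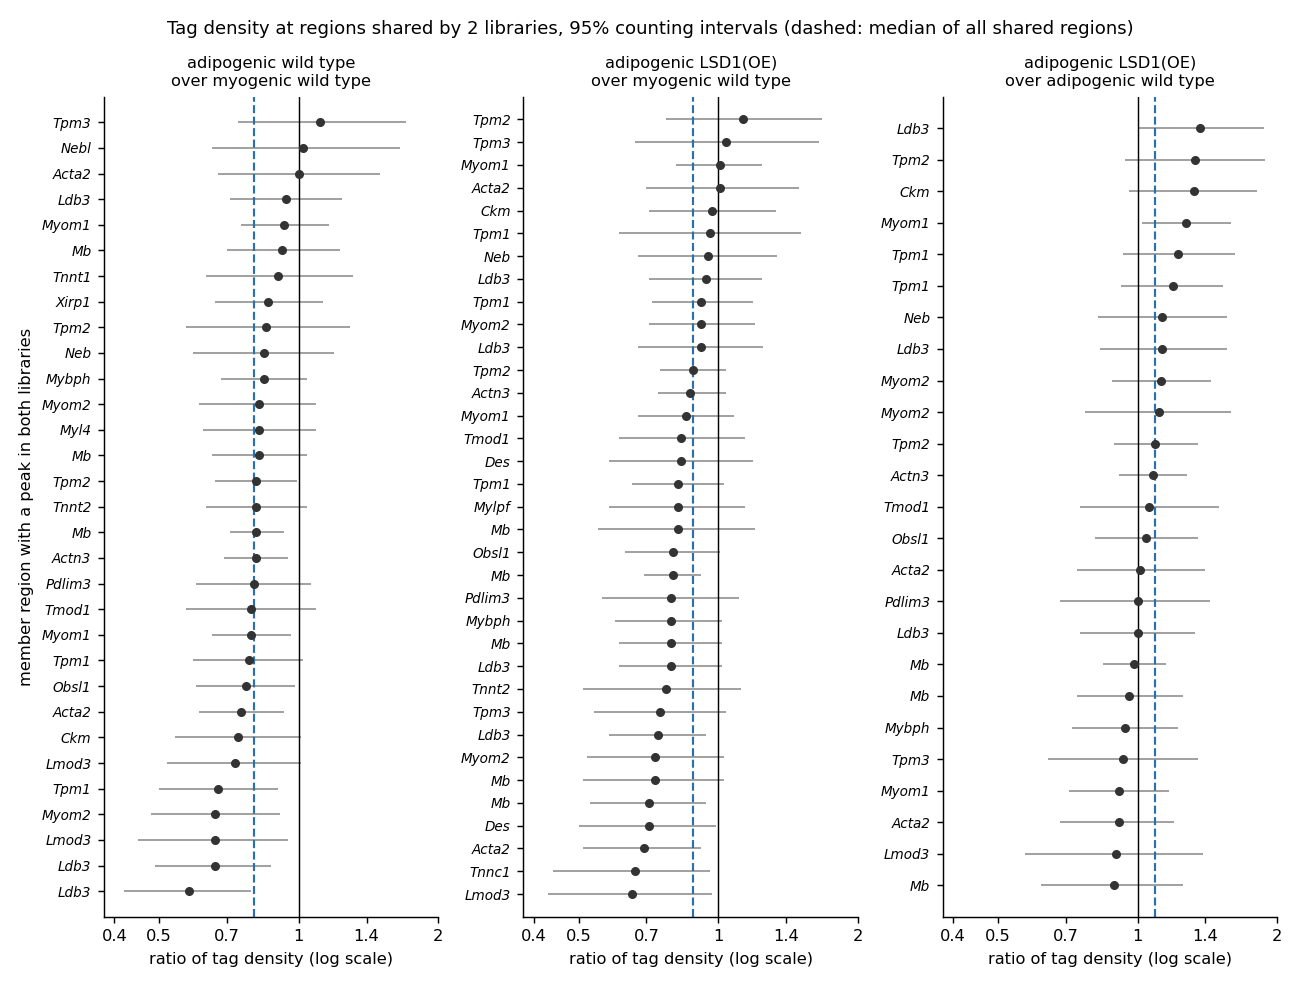
Ratio of tag density between 2 libraries (log axis) at member regions with a peak in both, sorted by ratio, with 95% counting intervals as bars, a solid line at 1 and a dashed line at the median of all shared regions. The member ratios scatter around the dashed lines at 0.80, 0.88 and 1.09.

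The members also differed from other genes in the CpG content of their promoters. The observed over expected CpG ratio within 500 bp of the TSS, taken at the TSS with the highest ratio, had a median of 0.25 over the members and of 0.62 over the other genes. A ratio of at least 0.6 was found for 8 members (13.8%) and 51.6% of the others. The 8 were Des, Myl4, Mylpf, Nebl, Obsl1, Tmod1, Tpm1 and Tpm3, and each had a myogenic promoter peak, beside 80.1% of the other genes in this class, while 3 had one in wild-type adipogenic cells (37.5%, beside 48.5%) and 5 in LSD1(OE) cells (62.5%, beside 64.8%). Below a ratio of 0.6, a limit chosen after the data had been seen, the 50 members had a promoter peak in 42.0% of cases in the myogenic library, beside 21.1% of the other genes, in 18.0% beside 10.3% in wild-type adipogenic cells and in 14.0% beside 16.1% in LSD1(OE) cells. Within the class of few CpGs the members therefore stood above the other genes in both wild-type libraries and slightly below them in LSD1(OE) cells. With a limit of 0.5 in place of 0.6 the last comparison turned, at 12.5% beside 11.1%. Members with a myogenic but no wild-type adipogenic promoter peak were also split at 0.6. At or above that limit 3 of 5 (60.0%) were occupied in LSD1(OE) cells, beside 56.4% of such other genes. Below it 1 of 12 (8.33%) was occupied there, beside 41.7%.

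**Figure D5:**
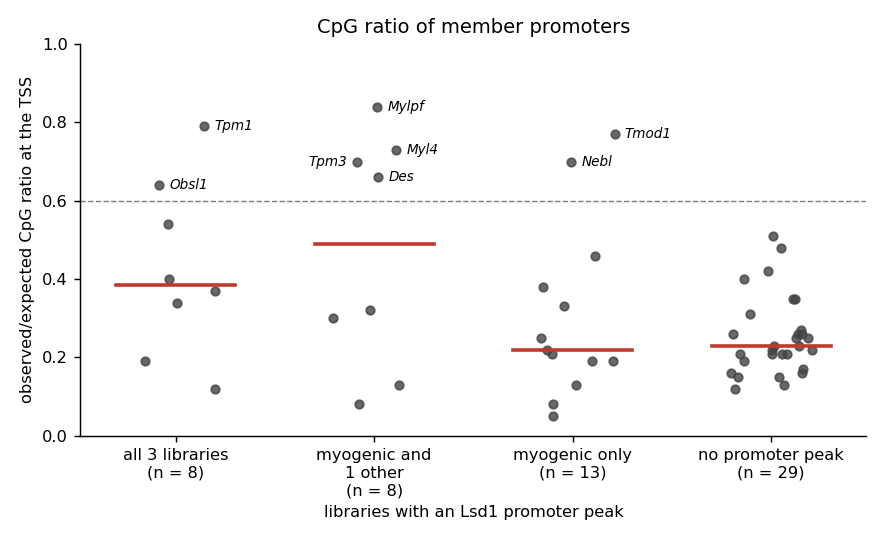
Observed over expected CpG ratio at the TSS of each of the 58 members (points), grouped by the libraries with an Lsd1 promoter peak, with the median as a red line and the limit of 0.6 dashed. The medians are 0.39, 0.49, 0.22 and 0.23 from left to right, and none of the 29 members without a promoter peak reaches 0.6.

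In all, 19 members had neither a promoter nor a gene-body peak in any library. The share of the other genes with neither was not counted. Taken singly, no promoter peak in any library was found for 50% of the members and 44.9% of the others. No gene-body peak was found for 36.2% of the members and 48.2% of the others. The 19 comprised the heavy chains Myh2, Myh4, Myh6, Myh7, Myh8 and Myh13, the light chains Myl2, Myl3 and Myl7, the slow and cardiac troponin I genes Tnni1 and Tnni3, the cardiac actin Actc1, Actn2, the fast myosin-binding protein Mybpc2, and Myoz3, Tcap, Csrp3, Tmod4 and Xirp2. The farthest from any myogenic peak was Xirp2, a Xin repeat protein, at 253609 bp from its TSS.

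For context, further lists were counted in the same way. Of 26 genes of sarcomere assembly and associated proteins, such as the myosin chaperone Unc45b, the methyltransferase Smyd1 and the kelch proteins Klhl40 and Klhl41, 18 had a promoter peak in the myogenic library, 7 in wild-type adipogenic cells and 9 in LSD1(OE) cells. Unc45b itself had one in LSD1(OE) cells alone. Of 24 non-muscle and smooth muscle relatives, such as the cytoplasmic actins Actb and Actg1, the non-muscle myosins Myh9 and Myh10 and Tpm4, 19 had one in the myogenic library, 14 in wild-type adipogenic cells and 19 in LSD1(OE) cells. Of all protein-coding genes other than the members, 51.6% had one in the myogenic library, 30.0% in wild-type adipogenic cells and 41.2% in LSD1(OE) cells.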

How the data were processed

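Lsd1 ChIP-seq of C2C12 cells comprised 3 ChIP libraries, each with its own input, which has no peak list. The authors sequenced 50 bp single reads, mapped them to mm10 (Bowtie2 in the submitters' processing notes) and called peaks of each ChIP against its input with MACS at a p cut-off of 1e-05. The file headers name MACS 1.4.2 and the processing notes 1.41. The deposited lists give for each peak a tag count after duplicates were limited, a score (10 times −log10 of the p-value), a fold enrichment over local background and an FDR in percent. Fold enrichment and score are used as deposited. All peaks had an FDR under 1%.

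Groups were taken from the sample labels. TSSs came from curated RefSeq transcripts of GRCm38.p6, the mm10 assembly, with 31647 TSSs of 26180 genes. A promoter peak had its centre within 2000 bp of any TSS of the gene, and a gene body ran from the lowest to the highest transcript end. Regions were merged from peaks overlapping by at least 1 bp. Tag densities have exact Poisson intervals and their ratios exact binomial intervals, at a 95% level, for counting error only. All members with a promoter peak are named with values, those with gene-body peaks only by score, and the rest by name. The members and lists were chosen with earlier results of these data known. The joins were tested on simulated data. Python 3.11.15, NumPy 2.4.6, pandas 2.3.3, SciPy 1.17.1 and matplotlib 3.10.9 were used. RefSeq promoters matched 48 of 58 members; Actn3, Lmod3, Myom2, Myoz1, Myoz3, Neb, Tcap, Tnni2, Tnnt3 and Xirp1 did not match.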

Additional observations from a re-analysis of the deposited data

How the results depend on the processing

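Alternatives were a stricter FDR (at most 0.1%), a score of at least 100, the 18893 strongest peaks of each list, unscaled ChIP tags, windows of 1000 and 5000 bp, summits in place of centres, other TSS choices, any overlap with the gene body, and stricter overlap between libraries. Of 86 values recomputed for the main counts, 66 stayed within 1.5 times. At the stricter FDR the members with a promoter peak came to 7 in wild-type adipogenic and 6 in LSD1(OE) cells, those with a gene-body peak to 13 and 12, those with a peak away from the TSS to 13, 8 and 9 in the myogenic, adipogenic and LSD1(OE) libraries, those in LSD1(OE) but not wild-type adipogenic cells to 1, and the regions shared by libraries to 24 from 41. With a score of at least 100 the peaks away from the TSS were found in 13, 9 and 10 members. With equal peak numbers, 21 members had a myogenic gene-body peak, 11 and 10 a myogenic and LSD1(OE) peak away from the TSS, and 9 a promoter peak in the myogenic but not the wild-type adipogenic library. With unscaled tags 14 and 11 had a myogenic and LSD1(OE) peak away from the TSS. With 5000 bp, 20 were occupied at the promoter in LSD1(OE) cells and 7 in these but not in wild-type adipogenic cells. These stricter settings keep fewer peaks by construction, and the wider window more.

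The share of members with a promoter peak stayed below that of the other genes in all 10 settings in LSD1(OE) cells, by 10.5 to 21.1 percentage points, and in wild-type adipogenic cells, by 1.9 to 12.6. In the myogenic library it was lower in 8 settings and higher in 2 (60.3 against 55.2% at 5000 bp, 50 against 46.1% with the nearest TSS only). Away from the TSS the members were higher in all 7 settings in every library, and within the gene body as a whole in LSD1(OE) cells they were higher in 3 and lower in 4. In all settings, 19 of the 29 myogenic, 6 of the 12 adipogenic and 6 of the 12 LSD1(OE) promoter calls were kept. Acta1, Myh1, Myl1, Myom2, Tnnc1, Tnnt1 and Tnnt3 lost their myogenic call in at least 4 of 9 alternatives. A CpG limit of 0.5, chosen after seeing the data, gave 41.7, 16.7 and 12.5% of the members and 14.4, 6.70 and 11.1% of the others.

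No paired analysis was possible because each condition had 1 ChIP library and no result came from a test. Depth limits the weakest peak that can be seen to 27, 35 and 30 tags, and no library could be left out without losing its condition.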
